A study of Mus musculus with 7 samples.

Results

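The fibrillins, the fibulins and the other genes of elastic fibers were followed in cancer-associated fibroblasts (CAFs) of mouse pancreatic tumors. The set was given by name as Fbn1, Fbn2, Eln, Fbln1, Fbln2, Fbln5, Efemp1, Efemp2, Mfap4 and Mfap5. Of these 10 genes, 9 were used, out of 12771 genes in the count table, and Fbln5 was not analysed here. Orthotopic tumors were grown in 8-week-old male C57BL/6 J mice from KPC cells, which are pancreatic cancer cells of mouse origin, and were taken at 2 to 3 weeks after injection. The KPC cells carried a non-targeting short hairpin RNA (shControl, 3 mice) or a hairpin that knocks down Brca2 (shBrca2, 4 mice). The hairpin was in the injected cancer cells, so host fibroblasts were not the target of the knockdown. Whether hairpin-carrying cells were among the sorted cells was not tested. All tumors came from a single cancer line. Live podoplanin-positive cells that lacked CD45, EpCAM and CD31 were sorted, and 1 library per mouse was read at the 3' end by a form of MARS-seq. The question for this gene set was how the elastic fiber program of CAFs differed when Brca2 was silenced in the tumor cells beside them.

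Elastic fibers give tissues their recoil. Fibroblasts and smooth muscle cells first lay down microfibrils, which are polymers of fibrillin, and tropoelastin made from Eln is then deposited on them and cross-linked. Fibulins, a family that includes the products of Efemp1 and Efemp2, bridge fibrillin, tropoelastin and the cross-linking enzymes, and the microfibril-associated proteins of the Mfap genes bind along the microfibril. Fibrillin microfibrils also hold latent TGFβ and bone morphogenetic proteins in the matrix. In many organs these genes are expressed by fibroblasts of the adventitia, the connective tissue sheath around vessels and ducts.

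Total counts ran from 1898679 to 5990579 per library, and every member had at least 72 counts in every library. The 8 fibroblast markers summed to between 27957 and 36482 CPM (counts scaled to the same library total) in shControl and between 26124 and 30245 in shBrca2, and Pdgfra and Pdpn were present in every library. The 6 epithelial markers, of which 4 could be measured, summed to 75.3 to 181 CPM in shControl and 276 to 431 CPM in shBrca2, and 3 of them were called higher. The immune markers, of which 3 of 6 were measured, summed to 67.1 to 78.9 and 107 to 119 CPM, and Csf1r alone was called higher. Cd68 and Lyz2, the others measured, had log2 fold changes of -0.32 and -0.26 and were not called. Mural markers, which stand for pericytes and smooth muscle, summed to 806 to 1376 and 1063 to 1715 CPM. Of 11 mural markers, 3 were called higher (Acta2, Des and Notch3). The mesothelial markers, 7 of 8 measured, summed to 253 to 817 and 683 to 875 CPM, with 1 called higher. Of all genes tested, 3.77% were called higher, by the criteria given below. The endothelial markers, 4 of 5 measured, summed to 20.4 to 34.8 and 25.8 to 36.4 CPM. Kdr had 33.3 to 102 normalized counts in the controls and 74.3 to 105 in shBrca2, and Pecam1 had 1.95 to 17.7 and 0 to 1.72. Tek and Vwf, from raw counts of 4 to 33 and 2 to 8, had log2 fold changes of -1.55 and -1.11. In Pecam1, Tek and Vwf all shBrca2 libraries lay below all controls. None of these 4 markers was called. The part of these cells in the results below was not tested. In bulk RNA of sorted cells, fewer cells that make a transcript and less transcript per cell cannot be told apart.

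Elastic fiber transcripts took a smaller share of the RNA in shBrca2 CAFs. Together the 9 members made up 0.884%, 0.882% and 0.863% of all counts in shControl replicates 1, 2 and 4. In shBrca2 they made up 0.658%, 0.686%, 0.581% and 0.604%, so every shBrca2 library lay below every control. By DESeq2's likelihood ratio test, a gene was called at an adjusted p under 0.1, an absolute log2 fold change over 0.5 and a mean normalized count over 5. Fbn1, Fbln2, Efemp1 and Mfap5 were called lower and no member was called higher. This makes 4 of 9 members lower, where 5.27% of all genes tested were called lower and 3.77% higher. Among the 2645 genes with a mean at or above that of Fbn2, whose mean normalized count was the lowest of the members, 9.68% were called lower. At an unadjusted p under 0.05, 6 members were lower and 0 higher, where 1236 of all 12771 genes were lower and 1026 higher. EdgeR called 3 members lower and 0 higher. The normalized counts of all 4 shBrca2 libraries lay below all 3 controls in the same 4 members, which was so for 9.29% of all genes. The median log2 fold change was -0.49 over the members and 0.01 over all genes. The number of members called lower was 2 without shBrca2 replicate 1 and 2 without shBrca2 replicate 4, when Fbn1 and Efemp1 were called.

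**Figure D1:**
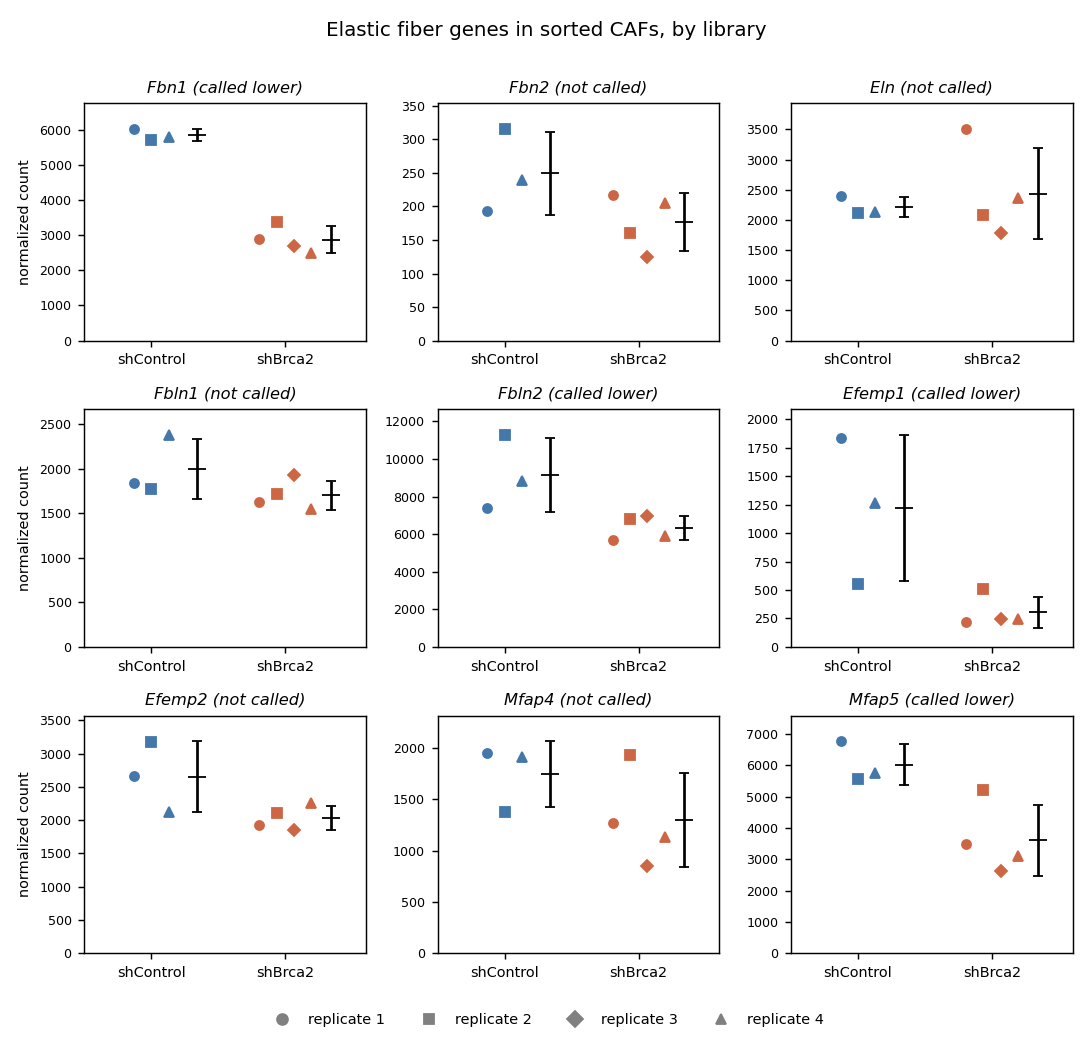
Normalized counts (vertical axes, from 0) of the 9 members in each library, with shControl in blue and shBrca2 in orange. Marker shapes give the replicate, and black bars give the group mean ± SD (n = 3 and n = 4). Fbn1 sits between 5713 and 6048 in the controls and between 2486 and 3396 in shBrca2, while Eln overlaps fully.

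Fibrillins are the backbone of the microfibril, and Fbn1 encodes the main fibrillin of adult tissue (GRCm38 chromosome 2, 125300594 to 125506485, minus strand). Normalized counts in the order of replicates 1, 2 and 4 of shControl were 6048, 5713 and 5805. Replicates 1 to 4 of shBrca2, in the same order below for every gene, had 2908, 3396, 2710 and 2486. The controls lay within 1.06-fold of each other, and the highest shBrca2 library was far below them. Fbn1 fell from 5855 ± 173 (SD, n = 3) to 2875 ± 388 (SD, n = 4), or -1.03 ± 0.15 (SE) in log2 fold change (DESeq2 adjusted p = 3.9e-09). That is a 2.04-fold lower level. It was called in all 12 alternative fits, at log2 fold changes from -1.12 to -0.96. Counting error alone was between 1.19% and 2.52% of the Fbn1 count of a library. In the annotation 2442 of 12128 exon bases of Fbn1 lie opposite Gm9913, and the strand handling of the counting was not given in the sources used here.

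Fbn2 encodes a fibrillin made mostly before birth (chromosome 18, 58008623 to 58210572, minus strand). Its normalized counts were 194, 316 and 239 in the controls and 218, 160, 124 and 205 in shBrca2. The groups overlapped, since control replicate 1 was below shBrca2 replicates 1 and 4. The log2 fold change was -0.49 with a 95% interval from -0.97 to -0.0011, and the gene was not called (DESeq2 adjusted p = 0.28). With raw counts of 72 to 274, counting error reached 11.8% in the shallowest library.

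Whether the balance of the fibrillins moved was asked within each library, from the ratio of Fbn1 to Fbn2 counts, which needs no scaling between libraries. The log2 ratio was 4.96, 4.17 and 4.59 in the controls and 3.73, 4.41, 4.43 and 3.59 in shBrca2. These ranges overlapped. The mean went from 4.57 ± 0.39 (SD, n = 3) to 4.04 ± 0.44 (SD, n = 4), which differ by -0.53 (exact permutation test, two-sided, p = 0.23, smallest possible p = 0.057). Fbn1 was then set against Col1a1, the gene of the α1 chain of type I collagen, a fibrillar collagen. The log2 ratio of Fbn1 to Col1a1 was -0.88, -1.52 and -0.51 in the controls and -2.12, -1.75, -1.76 and -2.41 in shBrca2. Every shBrca2 library was below every control, and the mean difference was -1.04, from -0.97 ± 0.51 (SD, n = 3) to -2.01 ± 0.32 (SD, n = 4). The two-sided exact permutation test gave p = 0.057, which is the smallest that 3 against 4 libraries can give, so 0.05 could not be reached. Col1a1 itself had a log2 fold change of -0.04 and was not called (DESeq2 adjusted p = 0.95). Its mean normalized count of 11748 was below those of Col1a2 (37469) and Col3a1 (46650). Those genes had log2 fold changes of -0.09 and -0.44 and were not called (DESeq2 adjusted p = 0.86 and 0.14). The ratio of Fbn1 to them was not tested.

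**Figure D2:**
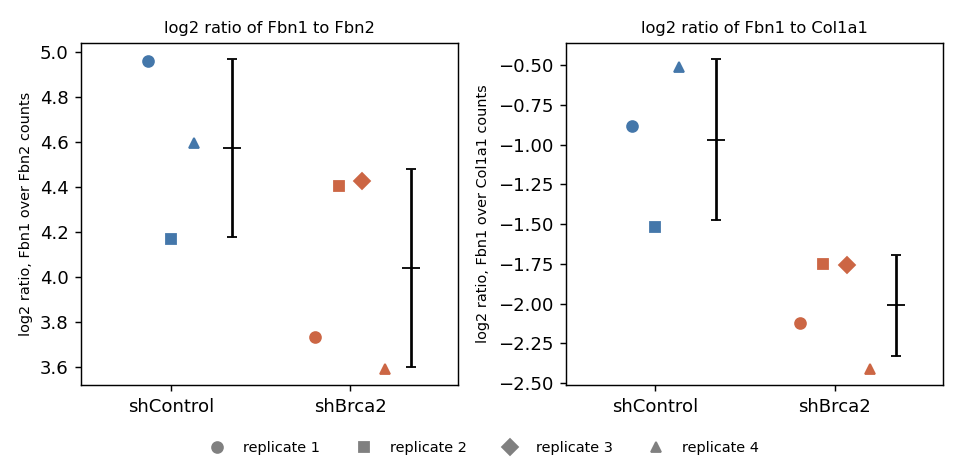
Log2 ratio of Fbn1 to Fbn2 counts (left) and of Fbn1 to Col1a1 counts (right) in each library, with 1 added to each count, and black bars for the group mean ± SD (n = 3 and n = 4). The vertical axes do not start at 0. The groups overlap on the left, and on the right the highest shBrca2 value is -1.75 against a lowest control value of -1.52.

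Mfap5 and Mfap4 encode proteins that bind to microfibrils. Mfap5, also called MAGP-2, binds fibrillin directly (chromosome 6, 122513584 to 122529290, plus strand). It had 6767, 5561 and 5742 normalized counts in the controls, against 3493, 5222, 2630 and 3103 in shBrca2. The controls were again the highest libraries, but shBrca2 replicate 2 came within reach of control replicate 2. Mfap5 fell from 6023 ± 650 (SD, n = 3) to 3612 ± 1130 (SD, n = 4), or -0.74 ± 0.23 (SE) in log2 fold change (DESeq2 adjusted p = 0.026). The call was lost without shControl replicate 1 (log2 fold change -0.65, DESeq2 adjusted p = 0.14), without shBrca2 replicate 1 (-0.72, 0.10) and without shBrca2 replicate 4 (-0.67, 0.12).

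Mfap4, whose product binds elastin and fibrillin and aids fiber assembly (chromosome 11, 61485431 to 61488708, plus strand), had 1948, 1375 and 1910 normalized counts in the controls. In shBrca2 it had 1272, 1932, 848 and 1130, with replicate 2 at the level of the highest controls. The log2 fold change of -0.43 had a 95% interval from -0.94 to 0.09 and was not called (DESeq2 adjusted p = 0.42). Without shBrca2 replicate 2 it was -0.69 and was called (DESeq2 adjusted p = 0.027).

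Among the fibulins, Efemp1 changed most. It encodes fibulin-3, a short fibulin of connective tissue that is dispensable for large elastic arteries but needed in fascia (chromosome 11, 28853154 to 28926743, plus strand). The controls had 1840, 555 and 1266 normalized counts and the shBrca2 libraries 215, 511, 245 and 246. The groups were apart only by the gap between control replicate 2 and shBrca2 replicate 2. Both groups were uneven, with a 3.31-fold range among the controls and a 2.38-fold range in shBrca2. Efemp1 fell from 1220 ± 643 (SD, n = 3) to 304 ± 139 (SD, n = 4), or -2.0 ± 0.38 (SE) in log2 fold change (DESeq2 adjusted p = 1.7e-05). This 4.0-fold lower level was the largest change of the 9 members. In the fits that left out a library the log2 fold change ran from -2.38 to -1.58, and Efemp1 was called in each. The DESeq2 adjusted p rose to 0.040 without shControl replicate 4, 0.037 without shBrca2 replicate 3 and 0.056 without shBrca2 replicate 4. With the replicate number as a block, Efemp1 was not called (log2 fold change -1.90, DESeq2 adjusted p = 0.31).

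Fbln2 encodes fibulin-2, which binds fibrillin, elastin and basement membrane proteins (chromosome 6, 91212460 to 91272540, plus strand). It had 7382, 11276 and 8821 normalized counts in the controls, against 5712, 6811, 6957 and 5876 in shBrca2. All shBrca2 libraries were below all controls, although control replicate 1 was only a little above shBrca2 replicate 3. The level fell from 9160 ± 1969 (SD, n = 3) to 6339 ± 635 (SD, n = 4), or -0.53 ± 0.18 (SE) in log2 fold change (DESeq2 adjusted p = 0.046). This change lay close to the limit of 0.5. The call was lost without shControl replicate 2 (log2 fold change -0.36, DESeq2 adjusted p = 0.23) and without shControl replicate 4 (-0.56, 0.12). It was also lost without shBrca2 replicate 1 (-0.48, 0.26), without shBrca2 replicate 4 (-0.49, 0.22) and in edgeR (-0.53, 0.10).

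The promoters of the called genes are shown because these genes fell in the same comparison. RefSeq promoter entries (GRCm38.p6) were found for 5 of the 9 members, and of the called genes for Fbn1, Fbln2 and Efemp1. Each line gives the 250 bases before the listed start site, 5′ to 3′ on the strand of the gene. Fbn1 is at chr2:125506439-125506688 (minus strand), Fbln2 at chr6:91212514-91212763 (plus strand) and Efemp1 at chr11:28852955-28853204 (plus strand). The listed start sites differ from the ends of the gene spans given above. By those spans the Fbln2 window lies inside its gene, and the Fbn1 and Efemp1 windows overlap the start of theirs. Capitals mark matches on either strand to 7 short motifs: TATAAA, the GC box GGGCGG, the AP-1 site TGANTCA, the heat shock element core GAANNTTC, the HIF core ACGTG, the TEAD site GGAATG and the SMAD site CAGAC.
Fbn1: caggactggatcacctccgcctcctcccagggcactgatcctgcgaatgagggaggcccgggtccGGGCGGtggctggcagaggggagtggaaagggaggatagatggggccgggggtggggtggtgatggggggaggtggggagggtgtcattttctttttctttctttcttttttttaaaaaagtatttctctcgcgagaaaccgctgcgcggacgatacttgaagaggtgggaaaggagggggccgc
Fbln2: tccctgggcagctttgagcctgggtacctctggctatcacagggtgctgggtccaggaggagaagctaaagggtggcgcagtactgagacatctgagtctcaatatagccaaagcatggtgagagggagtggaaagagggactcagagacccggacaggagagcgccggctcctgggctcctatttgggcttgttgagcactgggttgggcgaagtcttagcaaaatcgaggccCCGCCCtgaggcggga
Efemp1: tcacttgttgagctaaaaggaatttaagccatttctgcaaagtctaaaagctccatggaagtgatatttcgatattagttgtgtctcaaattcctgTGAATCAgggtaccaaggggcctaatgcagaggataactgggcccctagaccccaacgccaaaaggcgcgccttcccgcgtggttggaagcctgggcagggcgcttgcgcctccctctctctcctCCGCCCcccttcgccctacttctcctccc

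Each of these windows held 1 match to GGGCGG, starting 185 bases before the listed start site in Fbn1, 16 in Fbln2 and 29 in Efemp1. This motif was found in 32.7% of 32851 promoter windows of the same length. Windows of members not called held it too. Efemp2 had 2, 5 and 5 matches at its listed start sites, and Fbln1 had 0 and 1. Efemp1 also held the AP-1 letters TGANTCA, starting 154 bases before the start site, which 6.75% of windows had. The windows shown had no match to the TATA box (held by 12.4% of all windows), the heat shock element core (6.69%), the HIF core (16.6%), the TEAD site (12.6%) or the SMAD site (42.2%). The GC content was 59.2% in Fbn1, 58.8% in Fbln2 and 53.6% in Efemp1, against a median of 52.4% over all windows. These matches describe the letters and were not measured as binding.

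Efemp2 and Fbln1 were not called. Efemp2 encodes fibulin-4, which is required for elastic fibers because it brings lysyl oxidase to tropoelastin (chromosome 19, 5473946 to 5482520, plus strand). It had 2665, 3178 and 2117 normalized counts in the controls, against 1922, 2109, 1845 and 2256 in shBrca2, and only control replicate 4 lay among the shBrca2 libraries. The log2 fold change was -0.38 with a 95% interval from -0.73 to -0.04 (DESeq2 adjusted p = 0.20). Without shControl replicate 4 it was -0.52 and was called (DESeq2 adjusted p = 0.077).

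Fbln1 encodes fibulin-1, a glycoprotein of microfibrils and basement membranes (chromosome 15, 85205949 to 85286294, plus strand). Its normalized counts of 1842, 1770 and 2378 in the controls and 1620, 1711, 1926 and 1549 in shBrca2 overlapped. The log2 fold change was -0.23 with a 95% interval from -0.55 to 0.09 (DESeq2 adjusted p = 0.51). The interval leaves out a fall of the size seen in Fbn1.

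Elastin overlapped between the groups. Eln encodes tropoelastin, the rubber-like core of the fiber (chromosome 5, 134702595 to 134747368, minus strand). It had 2399, 2113 and 2124 normalized counts in the controls, against 3513, 2084, 1777 and 2362 in shBrca2. The highest and the lowest of the 7 libraries were both in shBrca2. The mean was 2212 ± 162 (SD, n = 3) in shControl and 2434 ± 758 (SD, n = 4) in shBrca2. The log2 fold change of 0.14 had a 95% interval from -0.31 to 0.59 and was not called (DESeq2 adjusted p = 0.85). Without shBrca2 replicate 1, the highest library, it was -0.09 (DESeq2 adjusted p = 0.97). Eln was the only member whose log2 fold change was above 0.

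**Figure D3:**
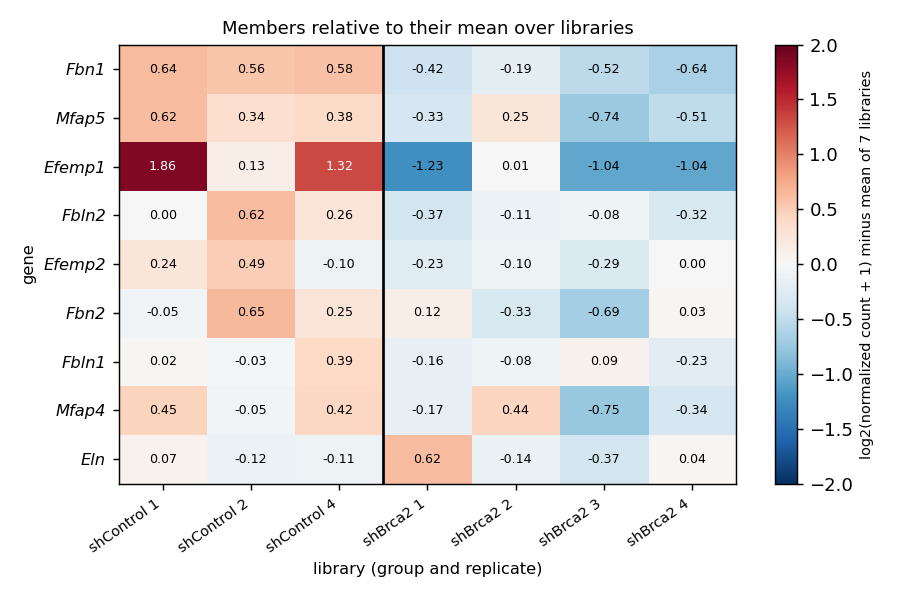
Each member (rows) in each library (columns) as log2(normalized count + 1) minus the mean of that gene over the 7 libraries, with red above and blue below the mean and the value printed in each cell. The black line separates shControl from shBrca2. Efemp1 spans from 1.86 in shControl replicate 1 to -1.23 in shBrca2 replicate 1, and the Eln row is highest in shBrca2 replicate 1, at 0.62.

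The members differed in how steady they were within a group. In the controls the coefficient of variation was 2.96% for Fbn1, 7.35% for Eln and 10.8% for Mfap5, and 52.7% for Efemp1. In shBrca2 it was 13.5% for Fbn1, 9.14% for Efemp2 and 9.61% for Fbln1. Eln, Mfap5 and Mfap4 were less steady there, at 31.1%, 31.3% and 35.5%, and Efemp1 was at 45.5%. Libraries also ranked unevenly. shBrca2 replicate 3, the shallowest library, was the lowest of the 7 in 5 members, namely Fbn2, Eln, Efemp2, Mfap4 and Mfap5. shControl replicate 1 was the highest in Fbn1, Efemp1, Mfap4 and Mfap5, and shControl replicate 2 in Fbn2, Fbln2 and Efemp2.

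The genes most like Fbn1 over the 7 libraries were found by Pearson's r of log2(normalized count + 1) among 6726 genes with a mean over 50. They were Man2a1, a Golgi mannosidase (r = 0.996), Fam3a (0.993), Iqsec2 (0.990), Slco3a1, an organic anion transporter (0.989), and Ackr1, an atypical chemokine receptor (0.988). With 7 libraries in 2 groups, these values describe a shared order and level and carry no test. Man2a1 had 1177, 1141 and 1098 normalized counts in the controls, against 719, 777, 642 and 626 in shBrca2. Among the members, r with Fbn1 was 0.90 for Mfap5, 0.90 for Efemp1 and 0.79 for Fbln2, between 0.57 and 0.69 for Fbn2, Fbln1, Efemp2 and Mfap4, and -0.15 for Eln.

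The other genes of elastic fiber assembly were counted in 7 lists of 61 genes, of which 51 were measured. Of these, 9 were called lower and 3 higher, and 39 were not called, where 5.27% of all genes were called lower and 3.77% higher. Leaving out shBrca2 replicate 1 gave 5 lower, leaving out shControl replicate 1 gave 0 higher, and edgeR called 7 lower and 2 higher. The median log2 fold change was -0.23. The list nearest to the members held other proteins of microfibrils, namely Mfap2, Fbln7, the latent TGFβ-binding proteins Ltbp1 to Ltbp4, the emilins and the hemicentins. All 10 measured genes of this list had a log2 fold change below 0, with a median of -0.68, and 5 were called lower. At an unadjusted p under 0.05, 8 of them were lower. Over all 12771 genes, 1236 were lower at that limit, and 6276 had a log2 fold change below 0.

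Ltbp4, whose product guides fibulin-5 and elastin onto microfibrils, had 1622, 1221 and 1575 normalized counts in the controls, against 1017, 802, 907 and 766 in shBrca2. The groups were well apart, and its log2 fold change was -0.76 ± 0.17 (SE; DESeq2 adjusted p = 0.00066). Hmcn2, a hemicentin with a fibulin-like end, had 185, 78.4 and 93.4 in the controls and 18.1, 24.5, 32.8 and 13.2 in shBrca2, a log2 fold change of -2.46. Fbln7, the gene of fibulin-7, had 114, 132 and 130 in the controls and 19.8, 71.7, 34.5 and 18.3 in shBrca2, or -1.77 in log2 fold change (DESeq2 adjusted p = 0.0008). Without shBrca2 replicate 2 the value of Fbln7 was -2.43. Ltbp4, Hmcn2 and Fbln7 were called in all 12 alternative fits. Also called lower were Ltbp2 (-0.61) and Ltbp1 (-1.27), from raw counts of 12 to 59 in the case of Ltbp1. Ltbp2 was not called without shControl replicate 2 (log2 fold change -0.36, DESeq2 adjusted p = 0.39), shBrca2 replicate 1 (-0.66, 0.17), shBrca2 replicate 3 (-0.51, 0.20) or shBrca2 replicate 4 (-0.58, 0.25), nor in edgeR (-0.61, 0.10). Ltbp1 was not called without shControl replicate 1 (-1.03, 0.28), shControl replicate 4 (-1.25, 0.10), shBrca2 replicate 1 (-1.17, 0.14) or shBrca2 replicate 4 (-1.16, 0.12). Mfap2, with the highest mean normalized count of the list, had a log2 fold change of -0.46 and a DESeq2 adjusted p of 0.055, and it was not called because the change was under 0.5.

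Log2 fold changes of the genes that cross-link tropoelastin lay on both sides of 0. Of 6 genes, which include 5 of the lysyl oxidase family and the copper transporter Atp7a, 1 was called lower (5.27% of all genes). Loxl4 averaged 129 ± 6.56 normalized counts (SD, n = 3) in the controls and fell to 51.2 ± 15.5 (SD, n = 4), or -1.31 in log2 fold change (DESeq2 adjusted p = 6.4e-05), and was called in all 12 alternative fits. Loxl1, which is tied to elastin by a fibulin and had the highest mean normalized count of the list, stood at -0.52 ± 0.21 (SE) in log2 fold change and was not called (DESeq2 adjusted p = 0.12). Lox had 0.31 ± 0.29 (SE) and was not called.

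Of the ADAMTS family genes that act on microfibrils, 10 were measured and 1 was called higher, where 3.77% of all genes were. Thsd4, also known as ADAMTSL6, promotes microfibril assembly. It had 23.1, 39.2 and 56.4 normalized counts in the controls, against 79.2, 69.4, 98.4 and 74.2 in shBrca2, or 1.02 ± 0.31 (SE) in log2 fold change (DESeq2 adjusted p = 0.025). Every shBrca2 library was above every control. The call was lost without shControl replicate 1 (log2 fold change 0.72, DESeq2 adjusted p = 0.28) and with the replicate number as a block (0.98, 0.26). Adamts10, with the highest mean normalized count of the list, had a log2 fold change of -0.23 and was not called.

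Genes that cleave elastic fibers were called in both directions, with 2 of 7 lower and 1 higher. Of all genes, 5.27% were called lower and 3.77% higher. Ctsk, which encodes the elastin- and collagen-degrading protease cathepsin K, averaged 1519 ± 309 normalized counts (SD, n = 3) in the controls and fell to 903 ± 128 (SD, n = 4), or -0.75 in log2 fold change (DESeq2 adjusted p = 0.0028). Ctsl, the gene of cathepsin L, was lower at -1.27 from raw counts of 13 to 67. It was not called without shControl replicate 1 (-1.08, DESeq2 adjusted p = 0.25), shControl replicate 4 (-1.08, 0.23) or shBrca2 replicate 1 (-1.06, 0.19). Cela1, a pancreatic-type elastase, was called higher at 0.95 (DESeq2 adjusted p = 0.013), but not without shControl replicate 1 (0.79, 0.17) or with the block (0.88, 0.18). Mmp2, with the highest mean normalized count of the list, had a log2 fold change of -0.49 and was not called (DESeq2 adjusted p = 0.16).

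The lists of receptors, ligands and proteoglycans held few calls, where 5.27% of all genes were called lower and 3.77% higher. Of 7 integrin subunits that bind fibrillins and fibulins 0 were called by DESeq2, with 1 lower and 1 higher at an unadjusted p under 0.05. Itgb1, with the highest mean normalized count, had a log2 fold change of -0.04. Of 7 growth factors that the latent complexes and fibrillins hold, Tgfb1 was called higher at 1.08, with 143, 426 and 135 normalized counts in the controls, against 466, 454, 356 and 698 in shBrca2. The groups overlapped through shControl replicate 2. Tgfb1 was not called without shControl replicate 1 (log2 fold change 0.82, DESeq2 adjusted p = 0.28), shControl replicate 4 (0.80, 0.27), shBrca2 replicate 2 (1.11, 0.40) or shBrca2 replicate 4 (0.87, 0.22), nor in edgeR (1.09, 0.11). Without shControl replicate 2 it was 1.83 (DESeq2 adjusted p = 4.0e-08). Tgfb3, with the highest mean normalized count of the list, had 0.08. Of 4 proteoglycans found with microfibrils, Dcn (decorin) was called lower at -0.77, and it was lost without shControl replicate 1 (-0.63, 0.29), shControl replicate 4 (-0.56, 0.35), shBrca2 replicate 1 (-0.69, 0.23) or shBrca2 replicate 4 (-0.68, 0.22) and in edgeR (-0.77, 0.12). Bgn (biglycan), with the highest mean normalized count, had -0.32 and was not called.

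**Figure D4:**
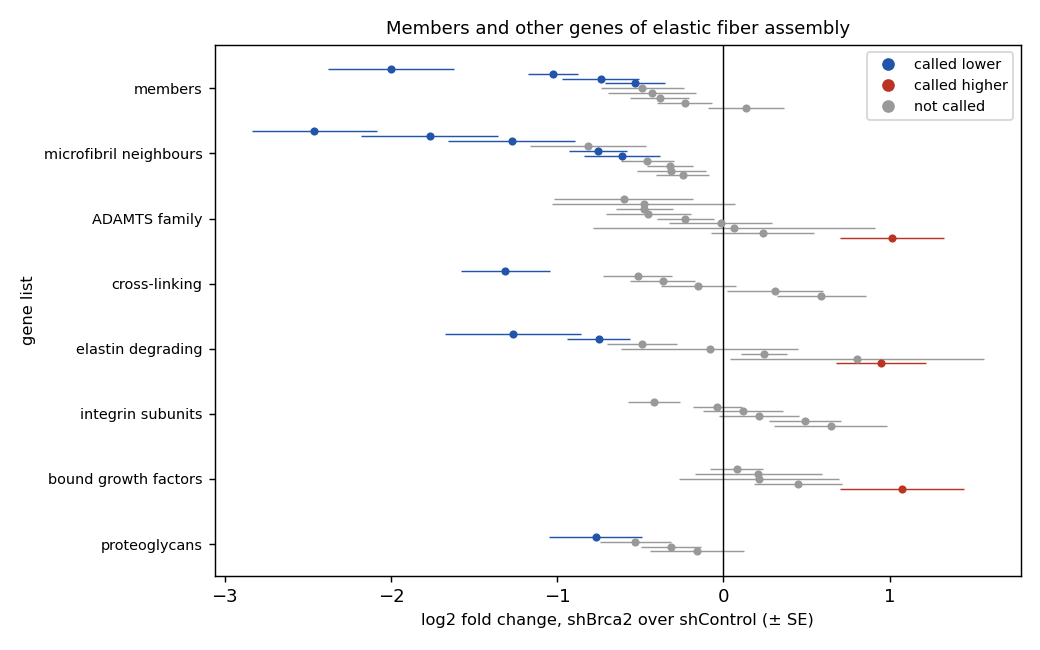
Log2 fold change of shBrca2 over shControl (horizontal axis, ± SE) for the 9 members and for the other genes of elastic fiber assembly with a mean normalized count over 5, by list. Blue points were called lower, red points higher and grey points were not called. The 10 microfibril neighbours all lie left of 0, from -2.46 for Hmcn2 to -0.25 for Ltbp3.

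Markers of adventitial fibroblasts were lower in shBrca2. All 8 of them (Pi16, Dpp4, Cd34, Ly6c1, Ly6a, Col14a1, Clec3b and Sema3c) were called lower (median log2 fold change -1.84), where 5.27% of all genes were called lower. Their summed level was 6928, 3887 and 6515 CPM in the controls and 1495, 2798, 1765 and 1370 CPM in shBrca2. The control with the lowest sum, replicate 2, was also the control with the lowest Efemp1, Mfap5, Fbn1, Mfap4, Fbln1 and Eln. Its Fbn1 (5713 normalized counts) lay close to that of shControl replicate 4 (5805). Likewise, the shBrca2 library with the highest sum, replicate 2, had the highest Efemp1, Mfap5, Fbn1 and Mfap4 of its group. Fbn2, Fbln2 and Efemp2, by contrast, were highest in shControl replicate 2. Within shBrca2, Fbn2 and Eln were highest in replicate 1, Fbln1 and Fbln2 in replicate 3 and Efemp2 in replicate 4. Pi16, a defining marker of this cell state, averaged 3536 ± 612 normalized counts (SD, n = 3) in the controls and fell to 1386 ± 148 (SD, n = 4). The part of these cells in the change of the members was not tested. The general fibroblast markers held steadier, with 1 of 8 called lower, a median of -0.09 and log2 fold changes of 0.01 for Pdgfra and -0.25 for Pdpn.

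**Figure D5:**
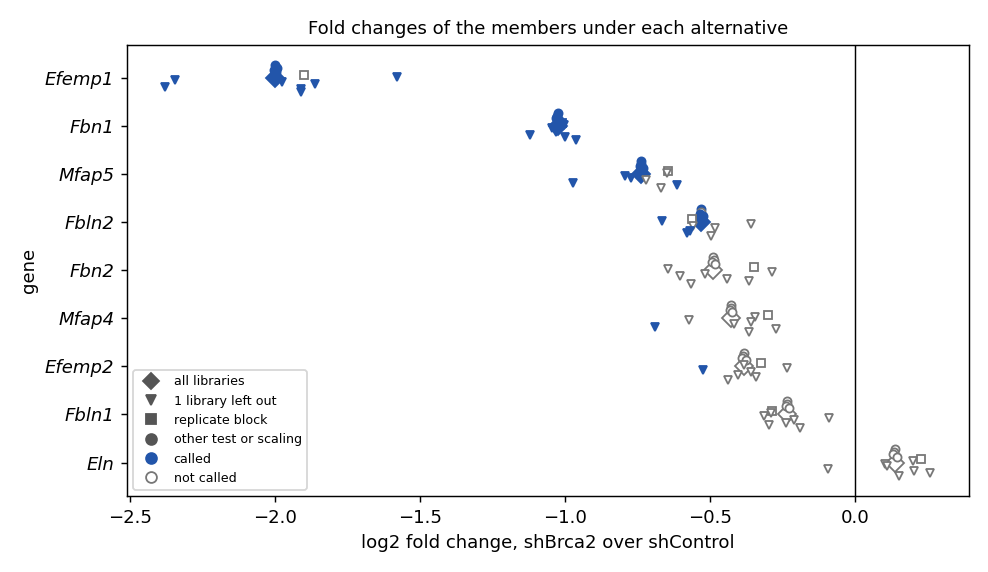
Log2 fold change of each member (horizontal axis) with all libraries (diamonds) and under 12 alternatives, namely 7 fits without 1 library (triangles), the replicate block (squares) and other tests, scalings or filters (circles). Filled symbols were called and open symbols were not. Fbn1 is filled throughout, between -1.12 and -0.96, and only Eln crosses 0.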

How the data were processed

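CAFs sorted from orthotopic KPC tumors were compared between shControl (3 mice) and shBrca2 (4 mice), with groups taken from the silencing status in the labels. The authors deposited raw counts per gene symbol, 1 column per library. The submitters' processing notes name bcl2fastq, cutadapt, STAR 2.4.2a, HTSeq, DESeq2 and mm10. The annotation, strand handling and use of molecular barcodes are not given in the sources used here. Counts were therefore taken as reads that may include PCR copies, and counting errors cover counting only. Reads come from the 3' end, and mean normalized counts were used across genes to choose named genes and a background, not as levels per length.

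DESeq2 1.42.0 in R 4.3.3 was run on all 12771 genes with its default size factors (median of ratios), testing the group by likelihood ratio as the methods of the study state. Fold changes are shBrca2 over shControl, not shrunken, with standard errors and 95% normal intervals, and p-values are Benjamini-Hochberg adjusted over all genes. 3 genes received no p. For ratios within a library an exact permutation test (two-sided, 35 divisions) was used. Alternatives were the Wald test, edgeR 4.0.16 with TMM, TMM size factors, a mean count of at least 10, a replicate block and leaving out each library. Named were all members, every called gene and the gene of each list with the highest mean normalized count, and the 5 genes most like Fbn1. Members and lists were chosen with earlier results of these data known. Code was tested on simulated data. No library was a copy of another, as the lowest mean chi-square per gene within a group was 3.01, where counting error gives about 1. Positions are from RefSeq on GRCm38.p6, which mm10 denotes, and exon overlaps from GENCODE M39.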

Additional observations from a re-analysis of the deposited data

Results flagged for a closer look

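In shBrca2 CAFs the normalized count of Efemp1 was 511 in replicate 2, against 215, 245 and 246 in replicates 1, 3 and 4. The gap to the next library was 0.896 of the range of the group, above Dixon's 95% limit for 4 samples. This was the only such gap among 23 values examined in the shBrca2 group, where chance gives about 1 in 20. Without shBrca2 replicate 2 the log2 fold change of Efemp1 was -2.38 (DESeq2 adjusted p = 3.1e-10).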

How the results depend on the processing

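Of 108 refits of single members, 94 kept their direction and their side of the thresholds, 11 lost a call, 2 gained a call and 1 turned its sign, which was Eln without shBrca2 replicate 1 (log2 fold change -0.0913, against up to 0.26 without shBrca2 replicate 3). Leaving out 1 library gave 2 to 5 members called lower, 5 to 12 other genes of elastic fiber assembly called lower and 0 to 4 called higher. Those 0 higher calls were without shControl replicate 1. No alternative called a member higher.

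With the replicate number as a block (replicate block), 1 member was called lower, which was Fbn1 (log2 fold change -1.01, DESeq2 adjusted p = 0.0011). Fbln2, Efemp1 and Mfap5 lost their call. Of the other genes of elastic fiber assembly, 5 were called lower and 1 higher. Those lower were Fbln7, Ltbp4, Hmcn2, Loxl4 and Hspg2, and Tgfb1 was higher. Hspg2 was not called with all libraries and no block, but was called without shBrca2 replicate 3. Ltbp1, Ltbp2, Ctsk, Ctsl, Dcn, Thsd4 and Cela1 lost their call. Over all genes the block lowered the calls from 673 to 280 lower and from 481 to 211 higher. Same-numbered libraries did not deviate together, with correlations of -0.13, -0.17 and -0.18 for numbers 1, 2 and 4, and no library correlated best with its own number. Correlations over all pairs across the groups ran from -0.21 to 0.29. Deviations were taken from means of 3 or 4 libraries, so these values cannot show whether same-numbered libraries shared a batch. Within-library ratios kept their sign in every alternative, from -0.74 to -0.34 for Fbn1 to Fbn2 and from -1.31 to -0.81 for Fbn1 to Col1a1, with p between 0.057 and 0.53. Low counts limit precision, as for Fbn2 among the members (raw counts of 72 to 274). The cause of the lost calls was not tested.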

Other observations

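Of the 9 members, 3 shared an order of their highest libraries. Fbn1, Mfap5 and Efemp1 had the same libraries at the top in the same order, namely shControl replicates 1, 4 and 2 and then shBrca2 replicate 2. The summed adventitial markers, at 6928, 6515, 3887 and 2798 CPM, ranked these libraries the same way. Below them, shBrca2 replicates 1, 3 and 4 ran in a different order in each of these genes and in the sums. In Fbn1, shControl replicates 4 and 2 lay close, at 5805 and 5713 normalized counts, with counting errors of 1.29% and 1.49%. The other 6 members did not follow the shared order. Fbn2, Fbln2 and Efemp2 were highest in shControl replicate 2, Fbln1 in shControl replicate 4 and Eln in shBrca2 replicate 1, while Mfap4 had shBrca2 replicate 2 next after shControl replicate 1. These 7 libraries include the group difference itself, so the shared order is a description.

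Dpp4, another adventitial marker, was at 48.7, 26.6 and 32.1 normalized counts in shControl against 3.44, 14.6, 12.1 and 9.15 in shBrca2, and again shBrca2 replicate 2 was the highest of its group. Lum, which encodes the small proteoglycan lumican, was the only general fibroblast marker called lower, at -1.18 in log2 fold change (DESeq2 adjusted p = 0.015).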
